A study of Mus musculus with 8 samples.

Results

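The genes described here are 31 genes of the contractile apparatus of smooth muscle, chosen by name with earlier results of these data known. Their members were all probe sets whose single symbol in the platform annotation is 1 of these 31 names, which gave 64 of the 45037 probe sets tested and 31 of 18193 genes. Of the 31 genes, 13 were read by 1 probe set and 18 by several. RNA came from the first 5 cm of small intestine below the pylorus of male mice aged 6 months. The 4 KO mice were Pdx1flox/flox;VilCre, in which Cre driven by a 12.4 kb fragment of the mouse villin promoter removes exon 2 of Pdx1 in the gut epithelium. The 4 Ctrl mice were Pdx1flox/flox and carried the same floxed alleles without Cre. The labels describe the mice as brothers of a shared litter, and all ate a diet with 4.5% fat. Each mouse gave whole intestinal wall on its own Affymetrix array, so muscle, nerve, vessels, immune cells and epithelium were read together. The transgene acts in epithelium, and the muscle cells are not its target.

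Smooth muscle shortens when calcium and calmodulin activate myosin light chain kinase, which phosphorylates the regulatory light chain of myosin, and it relaxes when myosin phosphatase removes that phosphate. Actin filaments are anchored in dense bodies and membrane plaques, which the intermediate filament protein desmin links into a network. Many of the genes are driven by serum response factor with its coactivator myocardin, through a DNA element named the CArG box. In the small intestine these cells form the muscle layers that mix and move the contents, and the thin muscle layer beneath the mucosa.

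Values are log2 expression values as deposited, and a gene is read from its brightest probe set by mean over all 8 arrays unless another is named. Array medians lay between 5.23 and 5.27, and precision is limited by there being 4 arrays a group. The brighter of the 2 Pdx1 probe sets averaged 5.93 ± 0.25 in KO and 8.52 ± 0.36 in Ctrl mice (SD, n = 4 each), and the groups did not overlap. The defining smooth muscle markers Myh11, Tagln, Cnn1 and Des read between 8.98 and 10.91 on every array. Means of 8 of 10 skeletal muscle markers and of 3 of 6 heart muscle markers lay below the array medians.

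Smooth muscle transcripts had slightly higher means in KO than in Ctrl intestine, but no gene passed the test. The KO mean was higher for 30 of the 31 genes and lower for Nexn, while 51.6% of all genes had a higher mean in KO. Because the 31 genes were chosen with earlier results of these data known, the shares over all genes describe and do not test. The median difference over the 31 genes was 0.20, or 1.15-fold, and over all genes it was 0.0046. The range was -0.0065 for Nexn to 0.40 for Synm. In limma 0 of 64 probe sets passed an adjusted p of 0.05, against 0.0422% of all probe sets (0.00444% higher in KO), and the lowest adjusted p was 0.564. At an unadjusted p under 0.05 there were 6 of 31 genes, all higher in KO, against 3.63% of all genes that were higher in KO. After a repeated quantile normalization the count was 1, against 3.05% of all genes. The count was 2, 13, 1 and 16 without KO mouse 1, 2, 3 or 4. In these settings 2.95%, 3.36%, 3.75% and 3.36% of all genes were higher in KO at that p. It was 3, 2, 6 and 3 without Ctrl mouse 1, 2, 3 or 4, against 3.13%, 3.42%, 3.06% and 3.63% of all genes. The KO and Ctrl values overlapped in all 31 genes, while every KO value lay above every Ctrl value in 2.28% of all genes. More muscle cells in a sample and more of these transcripts per muscle cell cannot be told apart in whole tissue.

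The higher KO mean rested mostly on 2 of the 4 KO mice, which were singled out after the values of these genes were seen. KO mice 1 and 3 stood above the rest in most genes, and KO mice 2 and 4 read close to the controls. KO mouse 1 lay above every Ctrl mouse in 24 genes and KO mouse 3 also in 24, against 18.3% and 24.4% of all genes. KO mouse 2 did so in 8 genes and KO mouse 4 in 5, against 18% and 22.5% of all genes. The highest of the 8 samples was KO mouse 1 or 3 in 27 of 31 genes, against 26.9% of all genes. Both of these mice exceeded KO mice 2 and 4 in 21 of 31 genes, against 14.3% of all genes. The pair was picked for its high values in these genes, so its counts are partly fixed by that choice. The shares over all genes are for the same pair, not for a pair picked in the same way. The median deviation of the 31 genes from their means over the 8 arrays was 0.24, -0.023, 0.23 and -0.070 in KO mice 1 to 4. It was -0.11, -0.077, -0.067 and -0.11 in Ctrl mice 1 to 4. Without KO mouse 1 the median difference was 0.14, and without KO mouse 3 it was 0.16. Without both, a setting chosen after the values were seen, it was 0.043, against 0.0091 for all genes, and 28 of 31 genes had a higher KO mean, against 53.2% of all genes. In that setting 0 of 31 genes had an unadjusted p under 0.05 in limma, against 3.02% of all genes that were higher in KO.

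**Figure D1:**
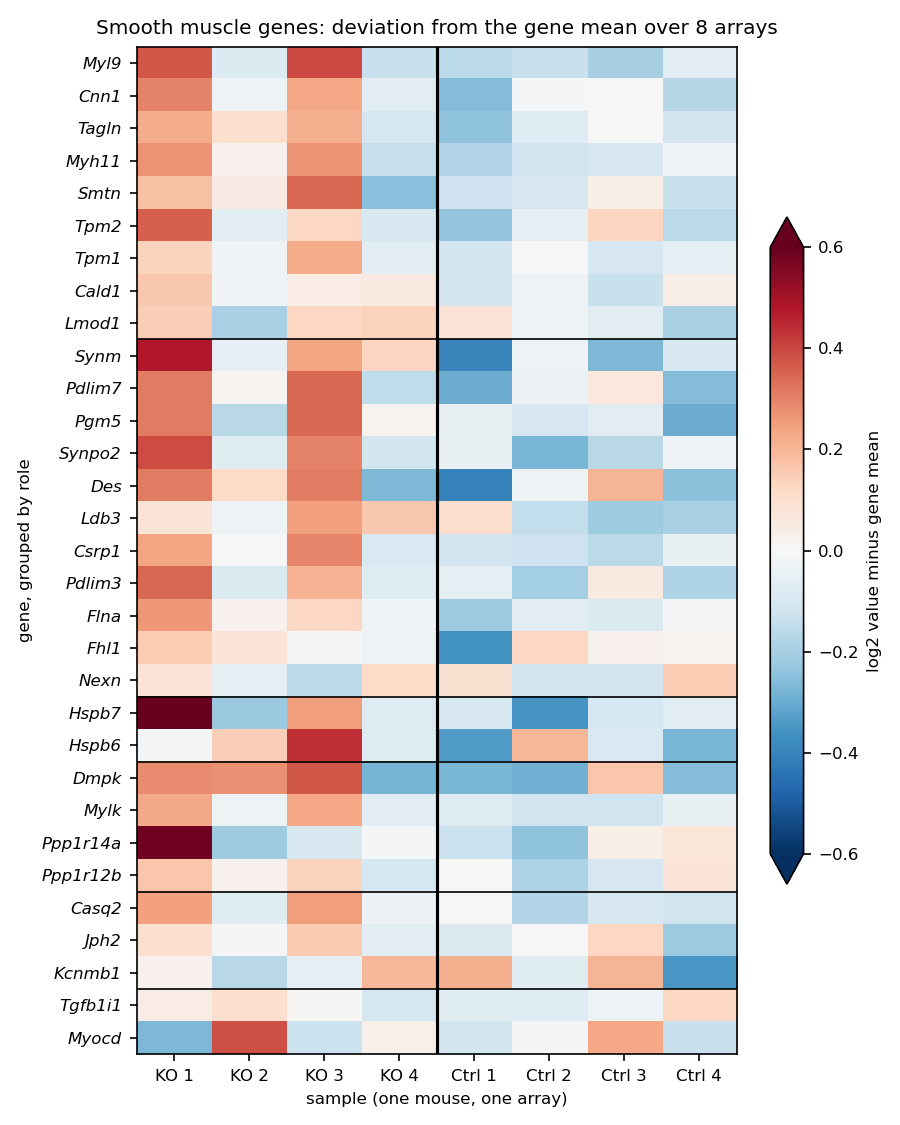
Heat map of the 31 genes (rows, grouped by role) in the 8 mice (columns, KO left of the line and Ctrl right), coloured by the log2 value minus the gene's mean over the 8 arrays. The columns of KO mice 1 and 3 are red in most rows (above the gene mean in 29 and 26 of 31 genes), while KO mice 2 and 4 are above it in 12 and 8.

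The 9 filament genes all had higher means in KO, with differences between 0.11 and 0.28. Myh11 encodes the smooth muscle myosin heavy chain, the motor of the thick filament. It read 10.61, 10.37, 10.61 and 10.21 in KO mice 1 to 4, against 10.17, 10.23, 10.25 and 10.31 in Ctrl mice 1 to 4. In KO mice 1, 2 and 3 Myh11 exceeded every control, and in KO mouse 4 it was within the control range. Its difference was 0.21 (95% interval -0.0033 to 0.43, adjusted p = 0.704 in limma). Myl9, the regulatory light chain that the kinase phosphorylates, read 11.11, 10.66, 11.13 and 10.60 in KO and 10.57, 10.61, 10.54 and 10.67 in Ctrl mice. KO mice 1 and 3 stood well apart from a narrow group made of the other KO mice and all 4 controls. The KO mean was 10.88 ± 0.29 and the Ctrl mean 10.60 ± 0.056 (SD, n = 4 each), a difference of 0.28 (95% interval 0.0026 to 0.56, adjusted p = 0.698 in limma).

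Among the proteins that sit along actin, Tagln encodes transgelin, an actin-binding protein used as an early marker of smooth muscle. It read 10.91, 10.79, 10.91 and 10.59 in KO mice and 10.45, 10.62, 10.70 and 10.58 in Ctrl mice. Only KO mouse 4 lay inside the control range, and the difference was 0.21 (adjusted p = 0.686 in limma). Cnn1, calponin, which binds actin and slows the myosin motor, read 9.54, 9.21, 9.47 and 9.18 in KO and 8.98, 9.23, 9.24 and 9.07 in Ctrl mice. KO mice 1 and 3 again lay above all controls, with the other KO mice inside their range. Smtn encodes smoothelin, found in contractile smooth muscle cells. It read 8.14, 8.01, 8.31 and 7.71 in KO and 7.84, 7.86, 8.0 and 7.83 in Ctrl mice. KO mouse 4 had the lowest Smtn value of all 8 mice.

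The tropomyosins Tpm1 and Tpm2, which lie in the groove of the actin filament, each had a pair of bright probe sets. The brightest Tpm1 probe set differed by 0.13. The next one read 11.55, 11.22, 11.67 and 11.20 in KO and 11.04, 11.17, 11.07 and 11.04 in Ctrl mice, a difference of 0.33 (adjusted p = 0.617 in limma). It was the only one of the 64 probe sets in which every KO value exceeded every Ctrl value, against 2.1% of all probe sets. The bright probe sets of Tpm2 differed by 0.16 and 0.27. Tropomyosin transcripts share sequence and are spliced in several forms, so these probe sets may read different forms. Cald1, caldesmon, which holds back the actin and myosin interaction, read 10.44, 10.26, 10.33 and 10.33 in KO and 10.17, 10.25, 10.15 and 10.32 in Ctrl mice. It varied least between mice, with a pooled within-group SD of 0.076, and its difference was 0.12. Lmod1, leiomodin, which starts new actin filaments, differed by 0.11.

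**Figure D2:**
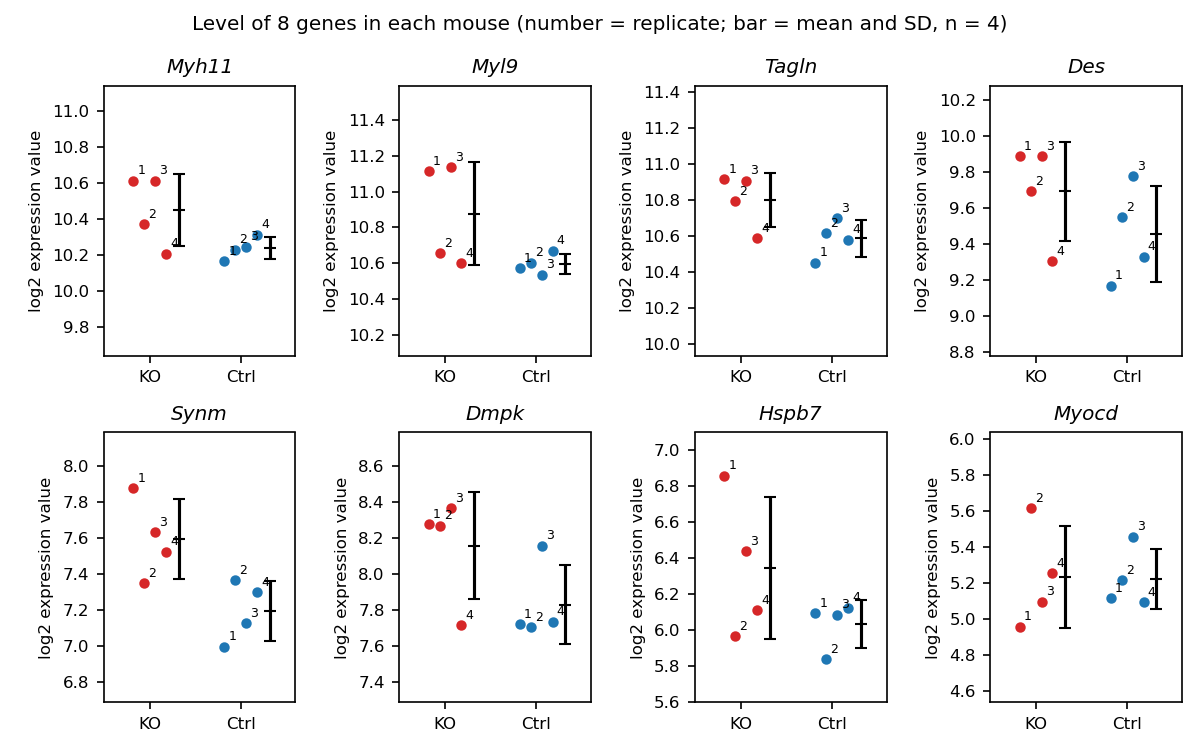
Log2 expression values of 8 genes in each mouse (points, numbered by replicate), KO left and Ctrl right, with mean and SD (bar, n = 4) beside each group; every panel spans 1.5 log2 units. Myl9 in KO mice 1 and 3 (11.11 and 11.13) lies apart from KO mice 2 and 4 (10.66 and 10.60), which sit among the controls.

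The promoters of the 31 genes were searched for the CArG box. A search of reference sequence does not bear on the differences between mice. RefSeq promoter windows (GRCm38.p6, 250 bases before to 50 after a start) were found for 26 of the 31 genes, in 33 windows. Myh11, Tagln, Myocd, Tgfb1i1 and Nexn had no window and were not searched. The box searched was CC, then 6 bases that are each A or T, then GG, a pattern that reads the same on both strands. It occurred in windows of 3 of 26 genes (11.5%), against 1.81% of 27025 genes. These genes were Myl9, Ldb3 and Fhl1. The TEAD element CATTCCT, searched on both strands, occurred in 2 of 26 genes (7.69%), Tpm1 and Ppp1r12b, against 6.15% of all genes. A match is a description of letters and does not show that a factor binds there. The 3 genes with a box had differences of 0.28 (Myl9), 0.23 (Ldb3) and 0.10 (Fhl1). The windows with a CArG box are shown 5′ to 3′ with the box in capitals, at chr2:156775214-156775513 on the plus strand for Myl9, chr14:34588632-34588931 on the minus strand for Ldb3 and chrX:56779433-56779732 on the plus strand for Fhl1.
Myl9: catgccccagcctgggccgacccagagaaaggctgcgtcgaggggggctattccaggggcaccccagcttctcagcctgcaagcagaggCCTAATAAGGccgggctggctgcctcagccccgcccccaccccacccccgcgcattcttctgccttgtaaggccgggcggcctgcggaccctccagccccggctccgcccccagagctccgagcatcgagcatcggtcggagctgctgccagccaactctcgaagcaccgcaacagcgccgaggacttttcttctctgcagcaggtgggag
Ldb3: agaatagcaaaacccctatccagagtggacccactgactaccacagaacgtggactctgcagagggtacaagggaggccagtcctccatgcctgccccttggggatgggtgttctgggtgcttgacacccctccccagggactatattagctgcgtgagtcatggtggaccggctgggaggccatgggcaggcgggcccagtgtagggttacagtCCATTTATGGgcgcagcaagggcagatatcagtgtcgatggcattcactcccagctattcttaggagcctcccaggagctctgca
Fhl1: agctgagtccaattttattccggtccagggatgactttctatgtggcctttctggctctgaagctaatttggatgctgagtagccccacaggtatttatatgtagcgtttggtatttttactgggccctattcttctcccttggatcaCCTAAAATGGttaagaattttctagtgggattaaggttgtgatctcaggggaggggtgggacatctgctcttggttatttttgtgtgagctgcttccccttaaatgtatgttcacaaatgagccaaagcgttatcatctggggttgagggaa
The Myl9 box ended 151 bases before the annotated start, the Ldb3 box 25 bases and the Fhl1 box 92 bases before it. A window of another Ldb3 start, nearby downstream, holds the same box. Only 1 of the 2 Fhl1 windows holds one.

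The 11 genes of dense bodies, plaques and the scaffold had a median difference of 0.23, with 10 of 11 means higher in KO. Synm encodes synemin, an intermediate filament protein that pairs with desmin, and it had the largest difference of the 31 genes. It read 7.88, 7.35, 7.64 and 7.53 in KO mice and 7.0, 7.37, 7.13 and 7.30 in Ctrl mice. KO mouse 2 lay just below the highest control, and the other 3 KO mice exceeded all controls. The KO mean was 7.60 ± 0.22 and the Ctrl mean 7.20 ± 0.17 (SD, n = 4 each), a difference of 0.40 or 1.32-fold (95% interval 0.13 to 0.66, adjusted p = 0.564 in limma). The other Synm probe set differed by 0.29. Without KO mice 1 and 3, Synm still differed by 0.24.

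Des, desmin itself, read 9.89, 9.69, 9.89 and 9.30 in KO and 9.17, 9.55, 9.78 and 9.33 in Ctrl mice. Its controls spread as widely as its KO mice, with SDs of 0.26 in Ctrl and 0.27 in KO, and the difference of 0.24 had an interval from -0.11 to 0.58. Ctrl mouse 3 had the highest control value of Des and also of Dmpk, Tpm2, Pdlim7, Cnn1 and Tagln. Among all 31 genes, Ctrl mouse 4 was the highest control in 12 and Ctrl mouse 3 in 10, against 29.3% and 24.6% of all genes.

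The PDZ and LIM proteins of the dense body showed 3 patterns across mice. Ldb3, a PDZ and LIM protein that binds alpha-actinin, read 8.64, 8.53, 8.81 and 8.72 in KO and 8.67, 8.41, 8.35 and 8.37 in Ctrl mice. On this probe set all KO mice lay above Ctrl mice 2, 3 and 4, and only Ctrl mouse 1 reached the KO range. Ldb3 differed by 0.18 on it without KO mice 1 and 3. The next Ldb3 probe set differed by 0.23 but did not keep that order. There KO mouse 1 read 8.11, below Ctrl mice 1 and 2 at 8.21 and 8.22. A dim Ldb3 probe set differed by 0.065. Pdlim7 and Pdlim3, its relatives, differed by 0.26 and 0.20 and had their 2 highest values in KO mice 1 and 3. The other 2 Pdlim7 probe sets differed by 0.026 and 0.16, the first with KO mouse 3 highest and the second with KO mouse 2 highest. Csrp1, a LIM protein of smooth muscle, read 9.97, 9.73, 10.03 and 9.64 in KO and 9.62, 9.61, 9.57 and 9.69 in Ctrl mice. Fhl1, another LIM protein, differed by 0.10, and its lowest value was the 9.30 of Ctrl mouse 1.

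The actin cross-linker filamin A, encoded by Flna, read 9.31, 9.07, 9.17 and 9.03 in KO and 8.83, 8.98, 8.96 and 9.04 in Ctrl mice. Its difference of 0.19 had a 95% interval of 0.013 to 0.37 (adjusted p = 0.687 in limma). Synpo2, an actin-bundling protein of the Z disc and dense body, differed by 0.25. Pgm5, a phosphoglucomutase relative found at muscle adhesion sites, differed by 0.26. Nexn, the actin-binding protein nexilin, averaged 4.95 ± 0.13 in KO and 4.96 ± 0.14 in Ctrl mice (SD, n = 4 each), below the array medians. At that level an unknown share of the signal is background, and a difference can be understated.

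**Figure D3:**
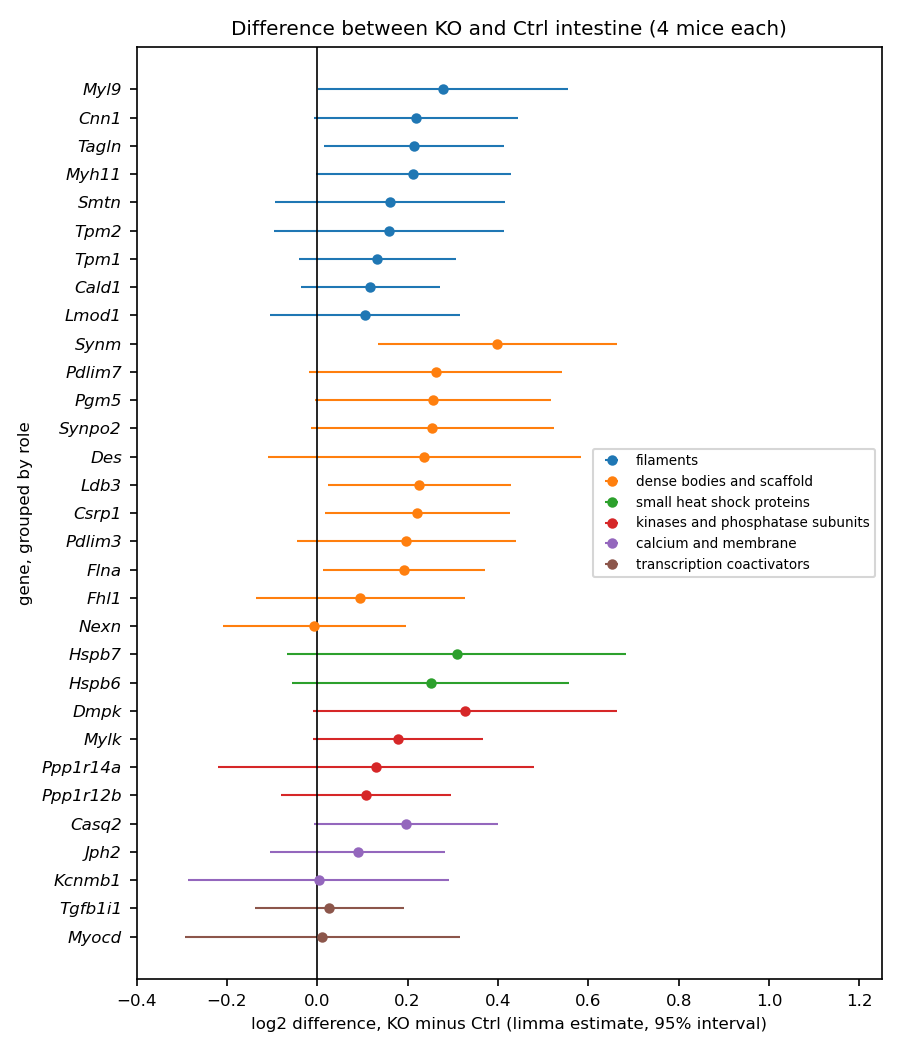
Log2 difference, KO minus Ctrl, of each gene (points, coloured by role) with its 95% interval from limma (horizontal bars, 4 mice per group). All points but Nexn lie above 0, and most intervals cross 0.

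Small heat shock proteins protect filaments in stretched muscle, and both members had higher KO means. Hspb7 varied most between mice of all 31 genes, with a pooled within-group SD of 0.30. It read 6.86, 5.97, 6.44 and 6.11 in KO and 6.09, 5.84, 6.08 and 6.12 in Ctrl mice, so KO mice 1 and 3 alone lay clearly above the controls. The other 2 Hspb7 probe sets differed by 0.27 and 0.34. Hspb6, whose product is phosphorylated during relaxation, read 7.30, 7.46, 7.75 and 7.24 in KO and 6.97, 7.51, 7.22 and 7.04 in Ctrl mice. Here KO mouse 3 alone exceeded all controls.

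The kinase and phosphatase members set how strongly myosin light chain is phosphorylated. Mylk, the myosin light chain kinase, read 11.78, 11.52, 11.78 and 11.48 in KO and 11.47, 11.43, 11.43 and 11.51 in Ctrl mice. Its controls spanned less than 0.1, KO mice 1 and 3 lay far above them, and its 3 probe sets differed by 0.18, 0.16 and 0.21. Dmpk, the kinase of the gene expanded in myotonic dystrophy, read 8.27, 8.27, 8.36 and 7.71 in KO and 7.72, 7.70, 8.16 and 7.73 in Ctrl mice. In Dmpk, unlike in most members, KO mouse 2 was high too, and Ctrl mouse 3 stood apart from the other controls. The difference was 0.33 (95% interval -0.010 to 0.66, adjusted p = 0.709 in limma).

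Ppp1r12b, a subunit that targets the phosphatase to myosin, differed by 0.11 on its brightest probe set and by -0.17, -0.020 and -0.19 on the dimmer ones. Ppp1r14a, the phosphatase inhibitor CPI-17, read 6.52, 5.71, 5.83 and 5.92 in KO and 5.80, 5.69, 5.97 and 6.00 in Ctrl mice. KO mouse 1 alone exceeded all controls. The difference was 0.13, and without that mouse it was -0.044.

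Of the 3 genes for calcium stores and membrane channels, Casq2 encodes calsequestrin, which binds calcium in the sarcoplasmic reticulum. It read 6.61, 6.30, 6.62 and 6.33 in KO and 6.37, 6.19, 6.27 and 6.25 in Ctrl mice, with KO mice 1 and 3 highest, and its difference was 0.20. Jph2, junctophilin, which ties the reticulum to the surface membrane, differed by 0.089. Kcnmb1, the smooth muscle subunit of the calcium-activated potassium channel, averaged 4.87 ± 0.15 in KO and 4.86 ± 0.27 in Ctrl mice (SD, n = 4 each), below the array medians. The other Kcnmb1 probe set, also dim, differed by 0.17.

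The 2 coactivators had differences close to 0 on their brightest probe sets. Myocd, the myocardin that acts with serum response factor, read 4.96, 5.62, 5.10 and 5.26 in KO and 5.12, 5.22, 5.46 and 5.09 in Ctrl mice. KO mouse 1 had the lowest Myocd value of all mice and KO mouse 2 the highest. The difference was 0.011 (95% interval -0.29 to 0.32), and its level lay at the array medians, where a difference can be understated. The other Myocd probe set, dimmer with a mean of 4.05, differed by 0.16. Tgfb1i1 encodes Hic-5, an adhesion protein that also acts as a coactivator. It read 8.80, 8.86, 8.77 and 8.65 in KO and 8.69, 8.68, 8.73 and 8.88 in Ctrl mice, a difference of 0.026 (95% interval -0.14 to 0.19).

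The level of a probe set went with the sign of its difference. Of the 39 member probe sets with a mean of at least 6, all 39 had higher KO means, against 60.9% of all probe sets at that level. Of the 25 below 6, 14 were higher and 11 lower, against 42.5% of all probe sets there that were higher. The median differences were 0.20 above that level and 0.011 below it, where all probe sets had 0.026 and -0.019. Among the 18 genes with several probe sets, the sign was the same on all of them in 12. In Cald1, for example, the 3 bright probe sets differed by 0.12, 0.18 and 0.16 and the 2 dim ones by -0.16 and -0.13. Bright probe sets in general leaned to KO: of all genes with a mean of at least 8, 63.2% had a higher KO mean. After a repeated quantile normalization that share was 46.6%, and among the 16 member genes at that level 15 stayed higher, with a median difference of 0.17, against 0.20 before.

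**Figure D4:**
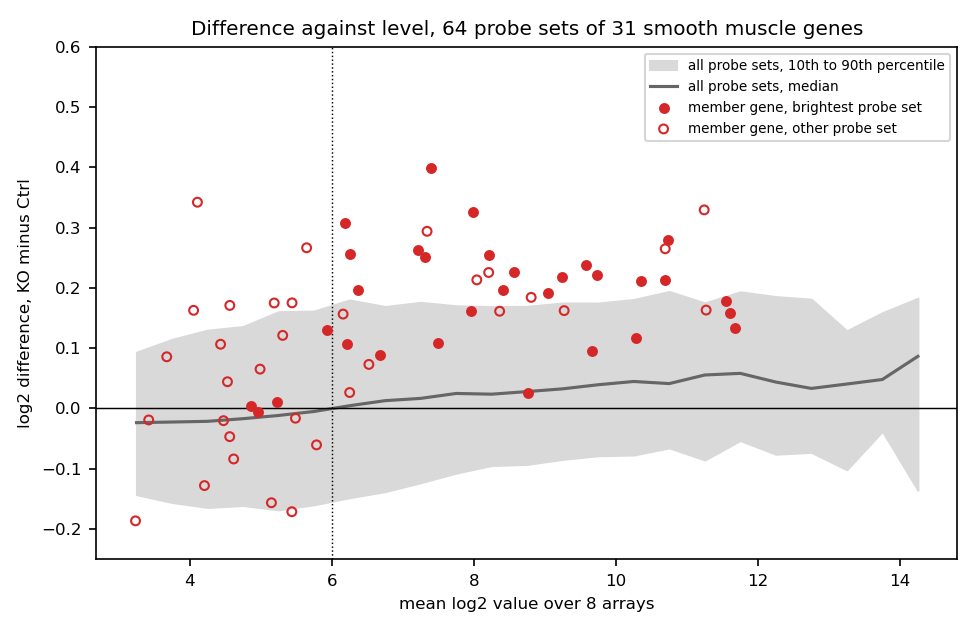
Log2 difference, KO minus Ctrl, against the mean log2 value over 8 arrays for the 64 probe sets of the 31 genes (filled: brightest of a gene; open: others), over the median and the 10th to 90th percentile of all probe sets (grey). Right of the dotted line at 6 all 39 member probe sets lie above 0, and left of it they scatter on both sides.

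The spread between mice was larger among the KO mice. The median SD of the 31 genes was 0.19 within KO and 0.12 within Ctrl, while over all genes the medians were 0.12 in each group. The SD was larger in KO for 23 of 31 genes (74.2%), against 48.7% of all genes. Pooled over both groups, the median within-group SD was 0.16, against 0.13 over all genes. Hspb7 at 0.30, Ppp1r14a at 0.27, Des at 0.27 and Dmpk at 0.26 lay above the 92nd percentile of all genes. Cald1 at 0.076 lay at the 13.8th percentile and Tgfb1i1 at 0.091 at the 23.2nd.

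The relatives of the filament genes outside the 31 included both smooth muscle actins, in which KO mice 1 and 3 were highest. Actg2, the enteric smooth muscle actin, read 10.61, 9.999, 10.76 and 9.63 in KO and 9.66, 9.69, 9.74 and 9.83 in Ctrl mice. KO mouse 2 also exceeded every control, and KO mouse 4 was the lowest of all. Its difference was 0.52 (adjusted p = 0.679 in limma), with SDs of 0.53 in KO and 0.074 in Ctrl mice. Acta2, the vascular smooth muscle actin, read 12.19, 11.91, 12.12 and 11.92 in KO and 11.85, 11.81, 11.91 and 11.81 in Ctrl mice. KO mouse 4 lay just above the highest Acta2 control, and KO mouse 2 just below it. Actins are so alike that their probe sets may read each other. Tpm4, a tropomyosin of many cell types, differed by 0.25. Of the 18 measured relatives 12 had higher KO means, with a median difference of 0.030, and 0 passed the test. In 1 of the 18 relatives the groups did not overlap, against 4.35% of all genes in either direction. It had the lower values in KO, with a difference of -0.034.

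Genes that control contraction or its transcription also held no gene past the test. Of 19 measured genes of calcium, kinase and phosphatase control, 15 had higher KO means (median difference 0.058). The smallest p in that list belonged to Mrvi1, a target of cGMP-dependent kinase that lowers calcium release. It averaged 7.01 ± 0.068 in KO and 6.82 ± 0.13 in Ctrl mice (SD, n = 4 each), and its groups did not overlap. The small GTPase Rhoa, which inhibits myosin phosphatase through its kinase, also had groups that did not overlap and differed by 0.13. These were the 2 of 19 genes of that list without overlap, against 4.35% of all genes in either direction. Of 17 measured genes of the myocardin and serum response factor list 11 were higher (median 0.048), with Rbpms, an RNA-binding protein of smooth muscle, at 0.19. Of 19 measured adhesion and cytoskeleton genes 14 were higher (median 0.035), and Itga5, the fibronectin receptor subunit, differed by 0.38 (adjusted p = 0.561 in limma).

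No marker of another cell type passed the test, and the part of other cells in the muscle values was not tested. All 10 epithelial markers had higher KO means, with a median difference of 0.098. In 3 of them the groups did not overlap, against 4.35% of all genes in either direction. At an unadjusted p under 0.05 in limma there were 2, against 3.63% of all genes that were higher in KO. These were Krt20 and Vil1, which differed by 0.22 and 0.19. All 10 markers had means of at least 8, a level at which 63.2% of all genes had a higher KO mean. That share was 46.6% after a repeated quantile normalization. Whether level or normalization bears on the epithelial markers was not tested. The mean deviation of the epithelial markers ranged from -0.034 to 0.14 in KO and from -0.085 to -0.037 in Ctrl mice. The groups did not overlap but nearly touched. The summed linear signal of these markers ranged from 89277 to 98808 in KO and from 85229 to 87476 in Ctrl mice. In KO mice 1 to 4 the epithelial deviation was 0.074, 0.049, 0.14 and -0.034. Enteric neuron and glia markers had lower KO means in 9 of 10 cases (median -0.067), while 51.6% of all genes had a higher KO mean. Their deviations ranged from -0.13 to 0.045 in KO and from -0.032 to 0.12 in Ctrl mice. Chat, the enzyme that makes acetylcholine, averaged 5.33 ± 0.11 in KO and 5.60 ± 0.065 in Ctrl mice (SD, n = 4 each), near the array medians (adjusted p = 0.561 in limma). Its groups did not overlap, as in 4.35% of all genes in either direction. The neuronal signal summed to 1038 to 1123 in KO and 1017 to 1278 in Ctrl mice.

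Markers of other cells of the wall were also read. Kit and Ano1, markers of the pacemaker interstitial cells of Cajal, differed by 0.15 and 0.038. Pericyte and vessel wall markers were higher in 4 of 5 cases (median 0.15), with deviations of 0.10, 0.11, 0.0026 and -0.023 in KO mice 1 to 4. The order of this mean differed from that of the 31 genes, but the single markers were split. Rgs5, Abcc9 and Kcnj8 were highest of all mice in KO mice 1 and 3, like most of the 31 genes. The other measured markers of the list were highest in KO mouse 2. Fibroblast markers were higher in 5 of 7 cases (median 0.037) and endothelial markers in 3 of 6 (median 0.019). Skeletal muscle markers were higher in 4 of 10 cases and heart muscle markers in 3 of 6. The heart muscle deviations were 0.088, -0.042, 0.16 and -0.13 in KO mice 1 to 4 and lay between -0.13 and 0.10 in Ctrl mice.

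Genes listed as markers of neighbouring organs varied between mice, and whether they mark those organs in this tissue was not tested. All 9 stomach markers had lower KO means (median -0.26), with deviations of -0.28, -0.022, -0.081 and -0.14 in KO mice and from -0.30 to 0.60 in Ctrl mice. Their summed linear signal ranged from 41413 to 62753 in KO and from 45177 to 79514 in Ctrl mice. The stomach list did not behave as a unit. Gkn3 was lowest in KO mice 1 and 3 (12.79 and 12.31, against 13.42 to 13.90 in the other mice). Tff2 was too (13.57 and 13.38, against 13.94 to 14.29). No other gene of the list had both of these mice lowest. Of 6 genes that pattern the pylorus in the embryo, 4 had lower KO means (median -0.063), and 3 had means below the array medians. Their summed linear signal ranged from 243 to 285 in KO and from 288 to 323 in Ctrl mice, without overlap. Their deviations overlapped, from -0.079 to 0.0050 in KO and from -0.00053 to 0.088 in Ctrl mice. In 1 of the 6 genes the groups did not overlap, against 4.35% of all genes in either direction. Exocrine pancreas markers were lower in 8 of 8 cases (median -0.16) but varied widely, with deviations from -0.32 to 0.58 in KO and from -1.34 to 1.03 in Ctrl mice, and KO mice 1 and 3 at -0.32 and 0.58 lay on opposite sides.

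**Figure D5:**
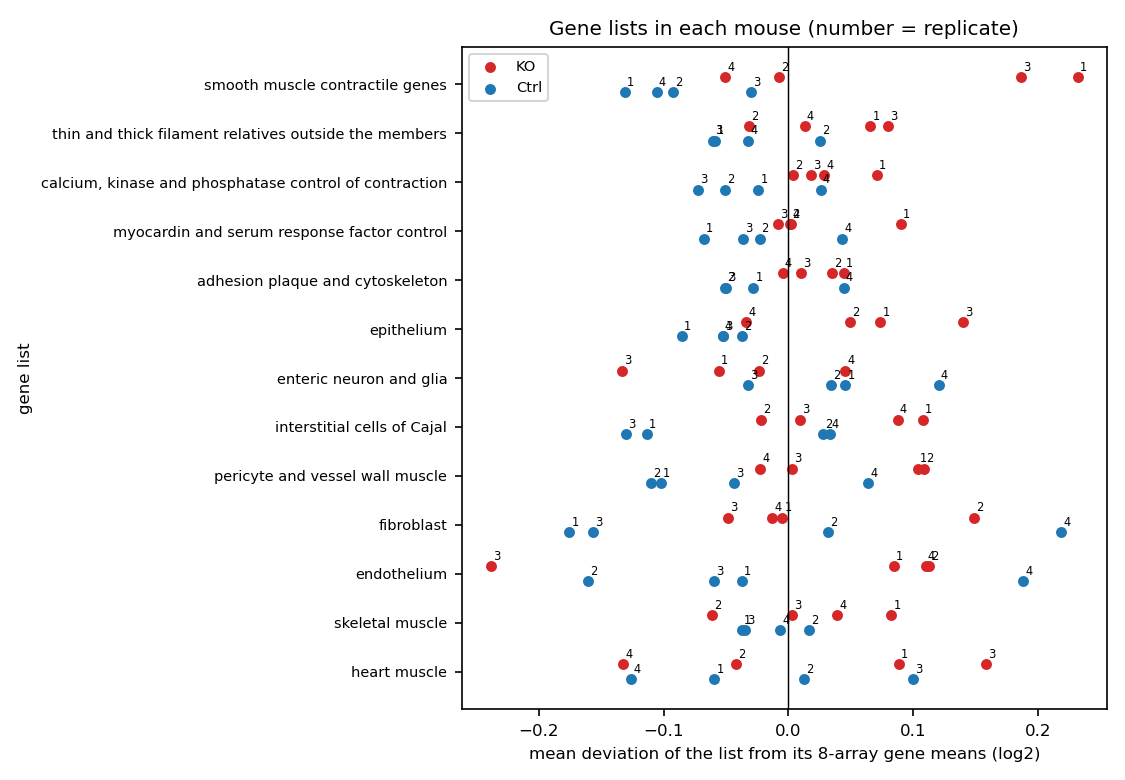
Mean deviation of each gene list from its genes' means over the 8 arrays (log2, horizontal axis), 1 point per mouse, numbered by replicate, KO above Ctrl in each row. In the top row KO mice 1 and 3 (0.23 and 0.19) lie apart from the other 6 mice, which lie between -0.13 and -0.0076.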

How the data were processed

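Total RNA was labelled as biotin cRNA for Affymetrix arrays, per the labels' protocols. The authors deposited 1 table of log2 expression values. The submitters' processing notes name Partek 6.4. How background was corrected and probe sets summarised and normalized is not given in the sources used here, and their range (2.55 to 14.83) is what shows the log2 scale. Of 45101 probe sets, 64 array controls were left out. The platform annotation gave 34945 probe sets a single symbol, 34741 of these were matched to RefSeq by Entrez identifier, and 0 symbols needed updating.

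KO minus Ctrl was tested two-sided in limma 3.58.1 (lmFit, then eBayes; R 4.3.3), with Benjamini-Hochberg adjustment over 45037 probe sets and no filter, covariate or block. An adjusted p under 0.05 counted as passing. The fit was tested on simulated data. Pairs of arrays had Pearson's r of 0.990 to 0.996 across probe sets, which are not independent, and no 2 arrays were identical. The labels call the samples biological replicates. Replicate numbers were not used as pairs: deviations of same-numbered samples correlated at -0.089, -0.12, -0.18 and 0.076. Some differently numbered samples correlated more strongly, from -0.47 (KO 1 with Ctrl 2) to 0.60 (KO 3 with Ctrl 2). The test did not model this shared variation.

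The 31 genes, their roles and the other lists were chosen with earlier results of these data known, so no test of a list or score is given. The text describes all 31 genes, plus Pdx1, Acta2, Actg2 and up to 3 genes of smallest p in each other list. A list deviation is the mean over its genes of the value minus the gene's mean over 8 arrays, and a summed linear signal adds 2 to the power of each log2 value. Alternatives covered a replicate block, repeated quantile normalization, median centring, an ordinary linear model, array weights, limma's trend and robust options, values raised to at least 5, probe sets with a mean of at least 6, a threshold of 0.1, averaging the probe sets of a gene, and leaving out single samples. Leaving out KO 1 and KO 3 together was added after the values were seen. Figures used matplotlib 3.10.9 in Python 3.11.15.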

Additional observations from a re-analysis of the deposited data

Results flagged for a closer look

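Within groups of 4, 4 values stood far from the other 3, by Dixon's criterion for a single distant value, among 64 groups examined. Chance gives about 5% of groups. Dmpk read 7.71 in KO mouse 4, against 8.27 to 8.36 in the other KO mice. Dmpk also read 8.16 in Ctrl mouse 3, against 7.70 to 7.73 in the other Ctrl mice, so 1 mouse in each group lay at the level of the opposite group. Lmod1 read 6.02 in KO mouse 2, against 6.34 to 6.36 in the other KO mice. Hspb7 read 5.84 in Ctrl mouse 2, against 6.08 to 6.12 in the other Ctrl mice. No explanation was tested for these values.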

How the results depend on the processing

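No member probe set passed the test in limma under any of the 20 settings, the reported one included. The lowest adjusted p of any of the 31 genes was 0.509, for Synm with array weights. With the replicate block 0 probe sets passed and the median difference was 0.20, as without it. Under the planned settings that left no sample out, the median difference lay between 0.15 and 0.21 and the KO mean was higher in 27 of 27 genes with a mean of at least 6 and in 29 to 31 of 31 otherwise. With single samples left out, the median ranged from 0.14 to 0.24, the count of higher KO means from 28 to 31, and the median within-group SD from 0.14 to 0.17. Without KO 1 and KO 3 together the median was 0.043. The count of genes whose groups did not overlap, 0 as reported, was 1 after quantile normalization (Flna) and 2 when probe sets of a gene were averaged (Synm and Tpm1). The count at an unadjusted p under 0.05, 6 of 31 as reported, was 3 with the floor, 2 with the ordinary linear model and 9 with the trended prior. In these settings 3.24%, 3.70% and 3.63% of all genes were higher in KO at that p. The count without overlap ranged from 0 to 7 with single samples left out, highest without KO 4, where fewer samples separate more easily.

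The sign turned in some genes. After quantile normalization Tgfb1i1 was -0.012 and Nexn 0.0067. Nexn was 0.0042 with median centring and 0.0060 with array weights. Kcnmb1 was -0.021 with the floor and -0.014 with array weights, and Ppp1r12b was -0.068 with the mean of its probe sets. Without KO 1 and KO 3 together Smtn was -0.020, Tpm2 -0.0021, Ppp1r14a -0.049 and Nexn 0.028. With single samples left out, Myocd ranged from -0.12 to 0.10, Kcnmb1 from -0.11 to 0.075, Ppp1r14a from -0.044 to 0.22, Tgfb1i1 from -0.0034 to 0.072, Nexn from -0.048 to 0.045 and Fhl1 from -0.0088 to 0.15. With 4 arrays a group, the 95% intervals allow differences up to 0.68 (Hspb7), and dim probe sets may understate a change.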
